A study of Homo sapiens with 13 samples.

Results

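A group of 135 genes rose and fell as a pulse that was highest 20 h after human embryonic stem cells were treated with BMP4. They were chosen by their measured levels in a time series of RNA-seq libraries, out of 13651 genes that averaged at least 2.5 CPM (counts scaled to a library total of 1e+06) over the 6 times. The level at 20 h had to be the highest of the 6 times, at least 3 times that at 0 h and at least 2 times that at 42 h. Everything the time series shows about these genes is therefore a description and was not tested. An LDN dose response at 5 h, which the choice did not use, served as the independent measurement.

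All cells were RUES2, a line of human embryonic stem cells carrying a GFP::SMAD4 fusion that makes the signal transducer SMAD4 visible. The time series had 7 libraries of ribosomal RNA-depleted RNA: 2 at 0 h, and 1 each at 4, 12, 20, 28 and 42 h, all labelled 100 ng/mL BMP4 with 5 µM IWP2 and RI, a ROCK inhibitor. IWP2 blocks the secretion of Wnt ligands. The 0 h libraries carry this treatment in their labels too and were read as cells collected at its start. The dose response had 6 polyA-selected libraries at 5 h, 1 each with 0, 10, 30, 100 and 300 nM of LDN-193189, a BMP receptor kinase inhibitor, added to BMP4 and IWP2, and 1 of untreated cells in mTeSR, the maintenance medium. The untreated cells lacked IWP2 as well as BMP4, so the effects of these cannot be told apart. Only 0 h had more than 1 library, there was no untreated control after 0 h in the time series, and nothing says that the 0 h libraries came from separate cultures. All values come from bulk RNA of 1 cell line, in which more RNA per cell and more cells of a kind cannot be told apart.

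BMP4 binds serine/threonine kinase receptors, which phosphorylate SMAD1, SMAD5 and SMAD9. These join SMAD4, enter the nucleus and bind GC-rich elements and the shorter SMAD element beside target genes. ID genes, inhibitory SMADs and secreted antagonists are among the best known direct targets, and many of them limit the signal that induces them. In pluripotent cells deprived of Wnt, BMP4 drives differentiation towards amnion-like cells.

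The promoters of 6 members described below are shown: BAHCC1, SALL3 and FOXI3 as members whose stretches hold the BMP response word, NKX1-2 and ID3 as members whose stretches lack both SMAD-binding words, and SHISA3 as an exception in the dose response. The first 5 of these all fell with LDN. Whether the word bears on the response was not tested. Each is the stretch of 250 bases before the RefSeq start site, read 5′ to 3′ from GRCh38.p14. Capitals mark GGCGCC, the core of the BMP response element. The stretches are chr17:81395207-81395456, plus strand for BAHCC1, chr18:78979568-78979817, plus strand for SALL3, chr2:88452694-88452943, minus strand for FOXI3, chr10:124450036-124450285, minus strand for NKX1-2, chr1:23559502-23559751, minus strand for ID3 and chr4:42397238-42397487, plus strand for SHISA3.
BAHCC1: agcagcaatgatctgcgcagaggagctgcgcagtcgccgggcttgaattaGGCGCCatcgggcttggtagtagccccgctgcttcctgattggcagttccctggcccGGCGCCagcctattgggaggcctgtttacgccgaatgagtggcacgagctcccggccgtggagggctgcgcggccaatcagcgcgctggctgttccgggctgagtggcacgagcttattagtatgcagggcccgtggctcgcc
SALL3: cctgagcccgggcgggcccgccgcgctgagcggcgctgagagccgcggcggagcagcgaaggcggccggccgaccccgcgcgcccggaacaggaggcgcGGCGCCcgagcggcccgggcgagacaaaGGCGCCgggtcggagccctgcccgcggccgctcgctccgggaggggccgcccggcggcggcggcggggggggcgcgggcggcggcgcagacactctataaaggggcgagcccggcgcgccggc
FOXI3: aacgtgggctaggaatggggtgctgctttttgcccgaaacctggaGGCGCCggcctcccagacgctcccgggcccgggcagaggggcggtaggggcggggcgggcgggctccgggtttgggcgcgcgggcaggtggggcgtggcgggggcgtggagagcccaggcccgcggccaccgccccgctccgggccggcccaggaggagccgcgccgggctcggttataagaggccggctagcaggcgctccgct
NKX1-2: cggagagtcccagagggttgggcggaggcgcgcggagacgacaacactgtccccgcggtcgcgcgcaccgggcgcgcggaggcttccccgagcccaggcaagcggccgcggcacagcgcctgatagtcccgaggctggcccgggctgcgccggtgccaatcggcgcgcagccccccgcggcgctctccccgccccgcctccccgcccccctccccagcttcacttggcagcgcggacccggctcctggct
ID3: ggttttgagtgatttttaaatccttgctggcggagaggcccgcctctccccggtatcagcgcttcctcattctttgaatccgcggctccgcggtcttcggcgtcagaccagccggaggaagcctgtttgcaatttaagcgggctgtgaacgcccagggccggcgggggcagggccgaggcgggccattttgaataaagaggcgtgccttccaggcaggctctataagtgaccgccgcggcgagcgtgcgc
SHISA3: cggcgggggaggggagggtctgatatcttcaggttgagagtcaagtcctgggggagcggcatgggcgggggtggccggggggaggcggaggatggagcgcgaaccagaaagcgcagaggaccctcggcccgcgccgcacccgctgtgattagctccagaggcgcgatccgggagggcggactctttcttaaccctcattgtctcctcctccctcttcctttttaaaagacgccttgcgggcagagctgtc

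RefSeq promoter windows, from 250 bases before to 50 after the start, were matched by symbol for 86 of the 135 members and for 10359 of the 13651 expressed genes. GGCGCC was present on either strand in 34 of the 86 windows (39.5%) and in 31.7% of all 10359. The SMAD element GTCTAG was in 4 member windows (4.65%) and in 4.87% of all. CCAAT, the NF-Y word, was in 22.1% of member windows and 37.1% of all, and the TATA box TATAAA in 12.8% and 5.30%. TGANTCA, the AP-1 word, had no match in the 86 windows and one in 4.10% of all. Of other GC-rich words, the GC box GGGCGG was in 69.8% of member windows and 71.4% of all, and the AP-2 word GCCNNNGGC in 30.2% and 33.0%. Median GC content was 68.7% in the member windows and 65.7% in all. These shares describe letters in a short window and were not tested.

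The pulse was broad. The median member was 5.09 times higher at 20 h than at 0 h, with a range from 3.04 to 1334 times, and 3.56 times higher than at 42 h, from 2.005 to 36.5 times. At 12 h the median member had already reached 70.8% of its 20 h level, and at 28 h it still held 72.2%. The second highest time was 28 h for 70 members, 12 h for 58 and 4 h for 7. For 121 members the level rose at every time up to 20 h and fell at every time after it. Summed over the members, CPM were 1709 and 1758 in the 0 h libraries and then 4822 (4 h), 7767 (12 h), 10803 (20 h), 7771 (28 h) and 3177 (42 h). At its height the group held 1.08% of all counts.

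Levels at the later times are given below in the order 4, 12, 20, 28 and 42 h. The replicated 0 h libraries give the only measure of spread in this series. With 0.5 CPM added to each value, their log2 ratio had a median size of 0.21 over the members and at most 0.90. The addition shrinks the ratio of members with few counts at 0 h. The position of the peak is less certain: for 39 members the 95% Poisson counting interval at 20 h overlapped that of the second highest time, and no later time had a second library. At 42 h the level was above both 0 h libraries in 101 members and below both in 24, and 54 were still at least 2 times their 0 h level. The lowest return was that of SHISA3, whose 42 h level was 0.129 times that at 0 h. Just inside the 3-fold limit were ZNF697 (3.04 times) and C14orf132 (3.07), and just outside RHBDL3 (2.96), GJD3 (2.98) and DGAT2 (2.98). At the 2-fold limit over 42 h, ENSG00000280152 (2.005), ADAM11 (2.03) and COL11A2 (2.03) were inside, and STARD8 (1.994) and PHKA1 (1.997) outside.

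**Figure D1:**
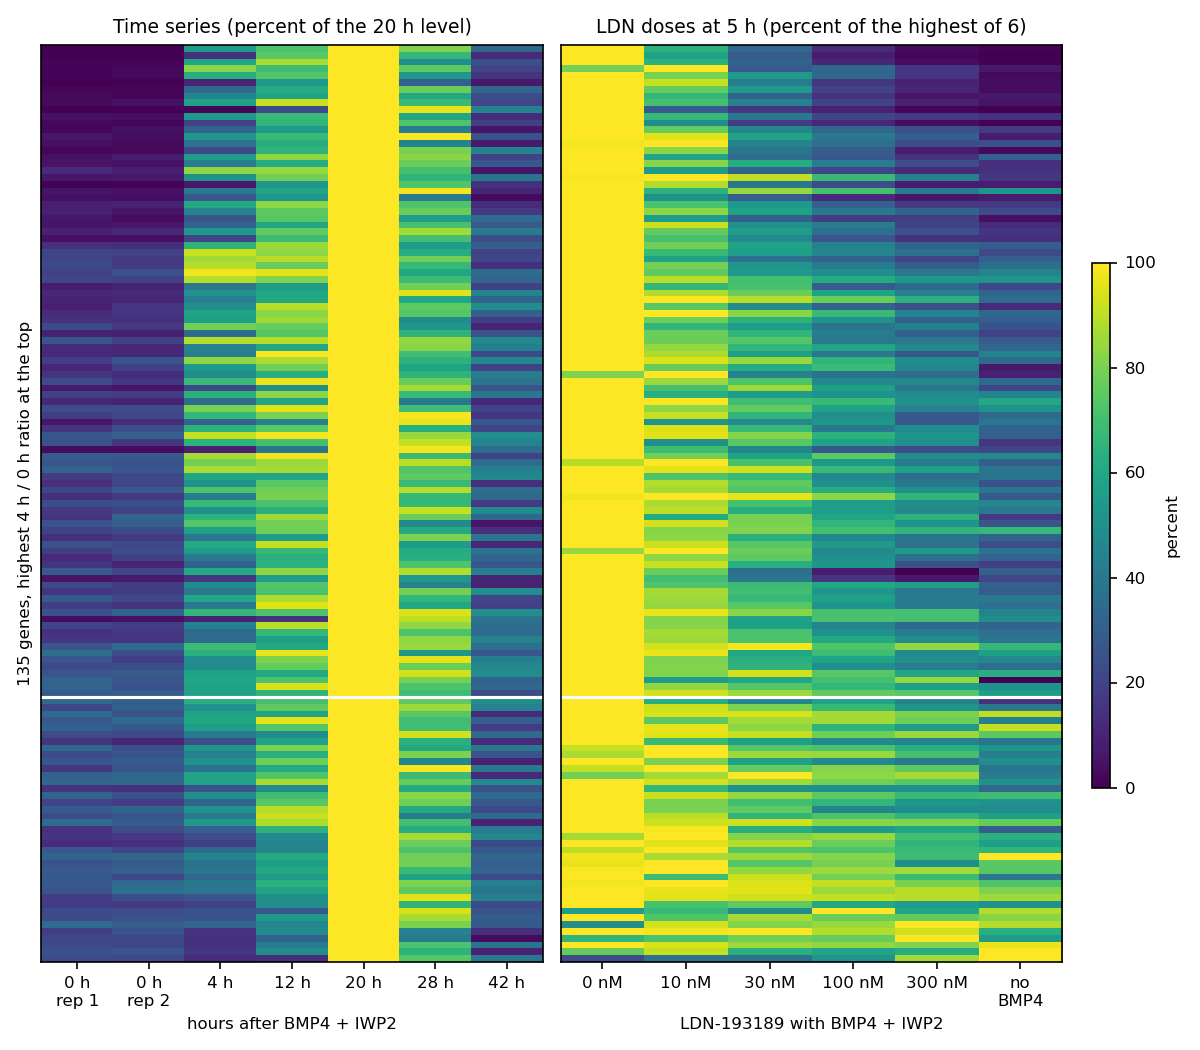
Each row is 1 of the 135 genes, ordered by the ratio of its 4 h to its 0 h level, with the time series on the left as percent of the 20 h CPM and the dose response at 5 h on the right as percent of the highest of the 6 libraries. The white line separates 96 genes at least 2 times their 0 h level at 4 h from 39 that were not. Above the line most rows darken from 0 to 300 nM, and below it the rows change less.

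In the dose response, 96 of the 135 members fell with rising LDN, 2 rose, 24 did not pass the test and 13 were too low to be tested. The test was edgeR's quasi-likelihood fit of a line over 5 dose steps, with Benjamini-Hochberg adjustment over 14907 genes at 0.05. Of all genes tested, 10.9% fell and 10.4% rose. Because a filter on low values can favor a member that is high in 1 library, the fit was also run without it. All 135 were then fitted, 104 fell and 2 rose, beside 5.26% of genes that fell in that fit. That share is 1674 of 31851 genes with at least 1 count, beside 1624 of 14907 in the filtered test. The genes added were low and brought few more calls, so the share is a low comparison for the members. The slope was below 0 for 130 of the 135, with a median of −0.27 log2 units per step beside −0.01 for all genes. The highest of the 5 doses was 0 nM in 114 members, and 85 fell at each of the 4 steps. The counts by sign of slope, highest dose and steps have no share over all genes beside them.

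At 300 nM the median of all 135 members, tested or not, stood at 50.2% of the 0 nM level. Over all genes tested the median was 98.8%, with 0.5 CPM added to every value in both. Summed CPM of the members were 4149, 3481, 2832, 2183 and 1723 from 0 to 300 nM, and 1341 in untreated cells. The 300 nM level was above the untreated one in 103 members, a count without a share over all genes beside it. With 1 library a dose, the error of each slope is the scatter of the 5 libraries about the line. Of the 122 members tested, 17 were under 1 CPM at 300 nM.

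Without LDN, BMP4 and IWP2 raised 76 of 120 compared members at least 2-fold over untreated cells at 5 h, beside 4.79% of all genes compared. LPL alone was at least 2-fold lower, beside 1.63% of all. Genes were compared if they averaged at least 1 CPM over the 6 libraries of the dose response. A gene silent in untreated cells passed only through its level in the other libraries, so this filter can favor genes raised by the treatment. No 2-fold count was made without it. Over all 135 members, unfiltered, the untreated level was below the 0 nM level in 130, again without a share over all genes. The median log2 difference was 1.36 over all 135 members, unfiltered, and 0.10 over all genes compared, with 0.5 CPM added to every value. There was 1 library on each side and no test, and the 0 nM library is the same one that anchors the dose trend. The untreated library was the shallowest of the series and held 7.89% mitochondrial counts beside 4.22 to 4.49% at the doses. The part of these differences in the result was not tested.

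Transcription factors were the most numerous of 5 kinds of protein by which part of the members were grouped. The share of each kind among all expressed genes was not counted, so these numbers do not set the group apart. By this assignment, made by hand after the values were seen, 22 members are transcription factors or their direct inhibitors. Of these 17 fell with LDN, none rose and 5 were too low to be tested, and 19 of the 22 had risen at least 2-fold at 4 h. In the fit without a filter 20 of the 22 fell, with a median slope of −0.41 per step. Many are known as regulators of later tissues rather than of pluripotent cells. None of the 22 stands on the lists of neural, neural crest, mesoderm or amnion markers examined here, and no gene on any of the 9 marker lists was a member. Each marker list held only 1 to 11 genes that averaged at least 2.5 CPM. Members were 135 of 13651 such genes, so this absence says little about the group.

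NKX1-2, a homeobox factor of the caudal embryo, was among the highest. Its levels were 40.8 and 45.6 CPM in the 0 h libraries and 291, 400.2, 483, 350.4 and 63.2 CPM at the later times. The 42 h level was far below the peak but still above both 0 h libraries. In the dose response it measured 225, 162, 120.1, 69.0 and 38.4 CPM from 0 to 300 nM, and 38.5 CPM in untreated cells. Each dose was lower than the one before, and the highest one equalled untreated cells within counting error. The slope was −0.61 ± 0.0314 (SE) log2 per step with an edgeR adjusted p of 7.05e-08. NKX1-2 lies at chr10:124445243-124450035 on the minus strand and shares exon positions with ENSG00000271434, an antisense lncRNA that is itself a member. That RNA went from 0.132 and 0.449 CPM in the 0 h libraries to a peak of 10.2 and a last value of 0.572. Whether counting used strand is not stated, so reads of the pair cannot be told apart with certainty.

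SALL3, a zinc finger factor of the spalt family, was the second most abundant member by CPM at 20 h. It stood at 166 and 149 CPM at 0 h and 411, 609.6, 671, 371 and 76.2 CPM at the later times, which is below both 0 h libraries. With LDN it fell from 157 CPM at 0 nM through 145, 116 and 84.7 to 59.3 at 300 nM, and untreated cells had 37.2. The slope was −0.35 ± 0.0266 per step (SE, edgeR adjusted p = 1.69e-06). LINC01896, a lncRNA on the other strand whose annotated start lies beside that of SALL3, moved alike, from 3.79 and 5.93 CPM in the 0 h libraries to a peak of 28.0 and a last value of 3.81. Its slope with LDN was −0.34 ± 0.0345 (SE, edgeR adjusted p = 1.98e-05).

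FOXI3, a forkhead factor known from placodes and hair follicles, had 21.4 and 19.9 CPM at 0 h, 177, 260.2, 419.8, 324 and 114 CPM at the later times. The dose response went from 102 to 83.9, 63.3, 43.5 and 24.6 CPM, with 13.8 in untreated cells and a slope of −0.48 ± 0.0322 (SE, edgeR adjusted p = 5.59e-07). FOXD1, another forkhead factor, was lower and peaked more sharply. It had 1.03 and 1.44 CPM at 0 h and 3.04, 10.9, 19.5, 10.4 and 2.01 CPM at the later times. Its slope was −0.90 ± 0.0989 (SE, edgeR adjusted p = 3.64e-05), from 2.71 CPM at 0 nM to 0.181 at 300 nM.

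Several developmental factors were almost silent at the start. NKX3-2, a homeobox factor of skeletal and visceral mesoderm, had 1 and 6 counts in the 0 h libraries (0.0263 and 0.0841 CPM), 1.72, 8.42, 15.8, 4.87 and 1.11 CPM at the later times. The 12 h and 28 h libraries were both well below 20 h, a narrower pulse than that of most members. LDN lowered it from 3.55 through 3.24, 1.51 and 0.579 to 0.332 CPM (slope −0.87 ± 0.102 SE, edgeR adjusted p = 6.35e-05). OLIG2, a bHLH factor of motor neuron and oligodendrocyte progenitors, measured 0.422 and 0.364 CPM at 0 h, 2.76, 5.16, 9.82, 4.10 and 0.294 CPM at the later times. It was below the filter of the dose test, with 2.37, 1.21, 0.707, 0.289 and 0.151 CPM over the doses, each lower than the last, and it fell in the fit without a filter (slope −0.96). RUNX3, a runt domain factor, had 0.553 and 0.407 CPM at 0 h, 4.85, 8.13, 13.1, 5.91 and 0.964 CPM at the later times, and fell with LDN (slope −0.54 ± 0.0884 SE, edgeR adjusted p = 0.000816). BHLHE22, a bHLH repressor of neurons, had 6 counts in each 0 h library, reached 7.11 CPM at 20 h, and went from 3.58 CPM at 0 nM to 0.121 at 300 nM and 0 in untreated cells. Its slope was −1.14 ± 0.0945 (SE, edgeR adjusted p = 3.16e-06).

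EN1, POU3F3, SIX2, NR5A1 and CUX2 are named for their roles and were picked after their values were seen. EN1, a homeobox factor of the midbrain and hindbrain boundary, had 3 counts in 1 of the 0 h libraries and none in the other, 0.507, 8.76, 38.1, 36.8 and 16.9 CPM at the later times. It appeared later than most members and its 20 and 28 h levels were nearly equal. POU3F3, a POU factor of brain and kidney, had 0.132 and 0.0981 CPM in the 0 h libraries, a peak of 6.02 and a last value of 1.44. NR5A1, a nuclear receptor of steroid-producing tissues, reached 5.12 CPM at 4 h and 6.24 at 20 h from 0.0527 and 0.126 at 0 h. CUX2, a homeobox factor of cortical neurons, had an early plateau, with 52.4 CPM at 4 h, 47.6 at 12 h and 59.0 at 20 h. SIX2, a homeobox factor of kidney progenitors, was flat to 12 h (1.32 and 1.39, then 1.48 and 1.56 CPM) and then went to 5.84 CPM at 20 h and 5.48 at 28 h. At 5 h SIX2 was under 1 CPM in every library of the dose response and showed no fall.

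ID3 and BMP7 were the members on the list of BMP targets and feedback. ID3, a dominant-negative partner of bHLH factors and a classical BMP target, had 29.0 and 33.5 CPM at 0 h, 253, 384, 491, 319.5 and 191 CPM at the later times. Its dose response was flat at low LDN, with 325 and 328 CPM at 0 and 10 nM, and then went to 297, 223 and 142 CPM, above the 51.5 CPM of untreated cells. The slope was −0.29 ± 0.0422 (SE, edgeR adjusted p = 0.000392). BMP7, a BMP ligand, had 6.30 and 6.38 CPM at 0 h and 31.7, 106, 155, 108 and 35.5 CPM at the later times. LDN lowered it at every step, from 38.7 to 27.5, 18.2, 10.2 and 5.61 CPM, and the last value was close to the 5.38 CPM of untreated cells. The slope of BMP7 was −0.67 ± 0.0333 (SE, edgeR adjusted p = 5.73e-08).

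Most of the BMP list responded to LDN without pulsing at 20 h. Of its 24 genes 20 were tested, 17 fell and 1 rose, and 6 were highest at 20 h. SMAD6, an inhibitory SMAD, was at 941 CPM at 20 h and still at 708 at 42 h, and ID1, a relative of ID3, at 1604 and 1303. NOG, which codes for the secreted BMP antagonist noggin, went from 255 to 149.8 CPM. What set ID3 and BMP7 apart from these genes was the level at 42 h, which is part of how the members were chosen.

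Among secreted regulators of other pathways, NOTUM stood out. It codes for a hydrolase that removes the lipid from Wnt ligands and so inactivates them. Counts were 2 and 12 in the 0 h libraries (0.0527 and 0.168 CPM), and levels then went to 31.5, 41.4, 57.8, 46.5 and 19.2 CPM at the later times. At 5 h NOTUM measured 34.3, 22.0, 11.8, 4.37 and 0.996 CPM from 0 to 300 nM, and 0.320 in untreated cells. Every step was lower than the one before, with a slope of −1.06 ± 0.076 (SE, edgeR adjusted p = 9.72e-07). It was the only member on the list of Wnt targets, ligands and antagonists, of whose 18 tested genes 7 fell and 4 rose. ADM, the vasodilator peptide adrenomedullin, had 24.2 and 29.3 CPM at 0 h, peaked at 179 CPM and ended at 62.1. It was nearly flat to 30 nM (97.5, 99.6 and 96.1 CPM) and lower at 100 and 300 nM (82.3 and 65.1), with a slope of −0.14 ± 0.0258 (SE, edgeR adjusted p = 0.00212).

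Of 12 members coding for ligands, other secreted proteins or matrix, grouped by hand, 8 fell with LDN, 1 rose and 3 were not called. COL11A2, a fibrillar collagen chain of cartilage, had 2.98 and 5.06 CPM in the 0 h libraries, 33.3 at the peak and 16.4 in the last library, and went from 23.3 to 5.58 CPM over the doses (slope −0.53 ± 0.0278 SE, edgeR adjusted p = 8.43e-08).

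Receptors, channels and transporters formed a further share. Among 17 receptor and adhesion genes, grouped by hand, 11 fell, none rose, 4 were not called and 2 not tested, and of 7 ion channel genes 6 fell. PTPRU, a receptor tyrosine phosphatase, had 73.8 and 88.4 CPM at 0 h, 193, 347, 486, 384 and 238 CPM at the later times, and went from 175 to 69.1 CPM over the doses (slope −0.34 ± 0.0169 SE, edgeR adjusted p = 6.39e-08). SORL1, a sorting receptor of endosomes, was more abundant and changed less with LDN. It started from 194 and 151 CPM, peaked at 607 and ended at 213 CPM, with a slope of −0.14 ± 0.0102 (SE, edgeR adjusted p = 1.28e-06), and 157 CPM at 300 nM beside 160.3 in untreated cells. GRIK3, a kainate-type glutamate receptor subunit, went from 5.45 and 4.63 CPM at 0 h to 60.3, 75.6, 112, 67.1 and 14.6 CPM at the later times, and with LDN from 41.0 to 6.91 CPM (slope −0.68 ± 0.0308 SE, edgeR adjusted p = 3.48e-08). SEZ6L, a membrane protein of neurons, was nearly silent at the start. It had 0.369 and 0.421 CPM at 0 h and 3.13, 25.6, 48.9, 35.5 and 7.14 CPM at the later times, and a slope of −0.83 ± 0.0984 (SE, edgeR adjusted p = 6.44e-05).

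ABCA1, the transporter that loads cholesterol onto lipoproteins, was close to its 0 h level again at 42 h. It had 14.3 and 9.74 CPM at 0 h, 22.1, 54.0, 93.2, 59.2 and 11.4 CPM at the later times. The largest step with LDN was the lowest dose, from 19.9 CPM at 0 nM to 13.4 at 10 nM, with 8.87 at 300 nM and 7.76 in untreated cells (slope −0.29 ± 0.0348 SE, edgeR adjusted p = 7.01e-05). B3GNT7, a glycosyltransferase, was one of the most abundant members, with 135 and 169.9 CPM at 0 h, a peak of 494 and 211 CPM in the last library. Its slope of −0.07 ± 0.0148 (SE, edgeR adjusted p = 0.00475) was among the shallowest that passed the test.

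**Figure D2:**
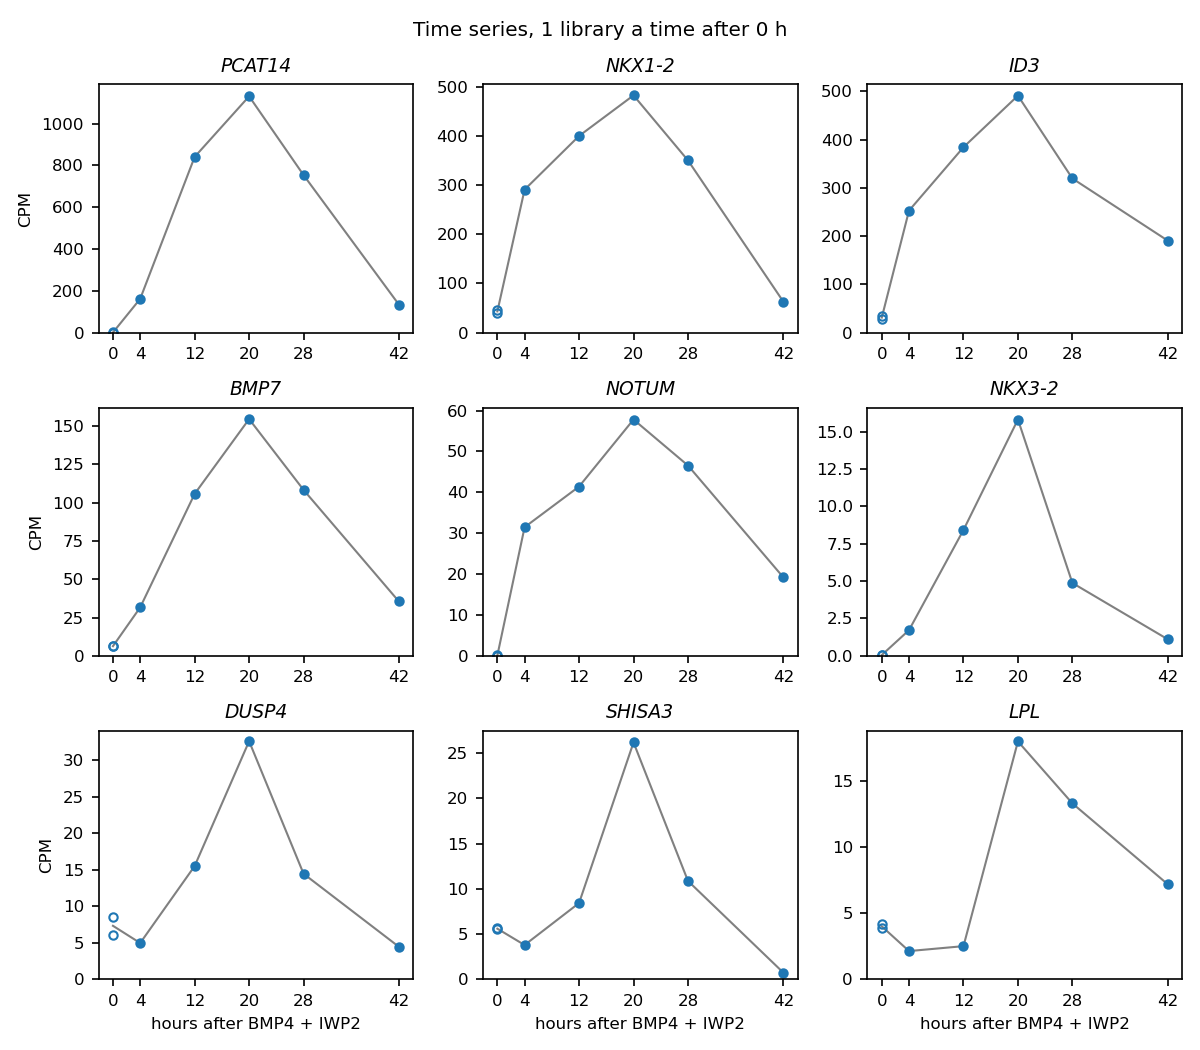
CPM of 9 members against hours after BMP4 with IWP2. Open points are the 2 libraries at 0 h, filled points the single libraries at later times, and lines join the 0 h mean to the later values. All 9 are highest at 20 h, by the choice of members, and DUSP4, SHISA3 and LPL lie below both 0 h libraries at 4 h.

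BAHCC1, which codes for a protein with a BAH chromatin-binding domain, and PCAT14, a long noncoding RNA, had the steepest slopes with LDN among the members tested, together with NOTUM and BHLHE22. BAHCC1 had 1.37 and 1.21 CPM at 0 h, 88.1, 129, 147, 73.2 and 36.3 CPM at the later times. In the dose response it went from 57.0 to 36.3, 18.3, 6.43 and 1.84 CPM, with 0.320 in untreated cells, a slope of −1.10 ± 0.0678 (SE, edgeR adjusted p = 3.04e-07). Its gene spans chr17:81395457-81466331 on the plus strand. Within 100 kb of it lie 2 more members on the minus strand, the lncRNA RENO1 (slope −0.78 ± 0.101 SE, edgeR adjusted p = 0.000135) and ENSG00000262877 (slope −0.76 ± 0.0909 SE, edgeR adjusted p = 7.34e-05). RENO1 reached 13.7 CPM at 20 h and ENSG00000262877 reached 9.87, from at most 0.364 CPM and 0.140 CPM in the 0 h libraries.

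PCAT14 was the most abundant member at 20 h and had the largest ratio to 0 h. It measured 1.11 and 0.589 CPM at 0 h, 162, 841, 1131, 754 and 134 CPM at the later times. At 5 h it had 501, 288, 145, 39.7 and 6.15 CPM from 0 to 300 nM and 0.961 in untreated cells, the steepest slope of the members tested (−1.34 ± 0.103 SE per step, edgeR adjusted p = 1.75e-06). PCAT14 lies in endogenous retroviral sequence with related copies elsewhere in the genome, so its share of reads is uncertain. Left out, the summed CPM of the other members were 1708 and 1757 at 0 h, with a peak of 9672 and a last value of 3042, and over the doses they went from 3648 to 1717.

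**Figure D3:**
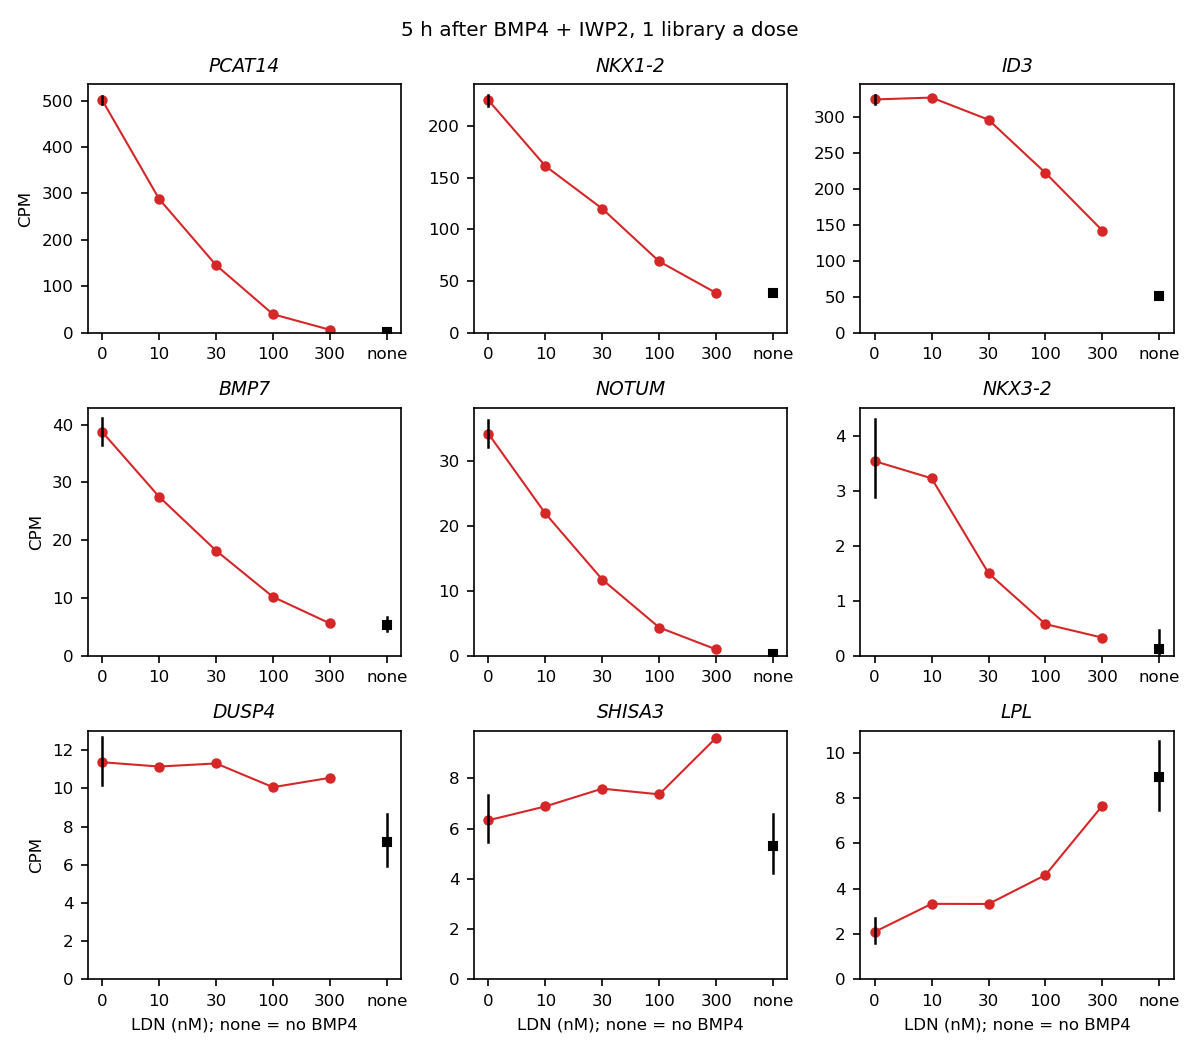
CPM of the same 9 members at 5 h against LDN dose, with BMP4 and IWP2, and in untreated cells (black squares, marked none). Each point is 1 library, and black bars are 95% Poisson counting intervals for the 0 nM and untreated libraries. PCAT14, NKX1-2, BMP7, NOTUM and NKX3-2 decline with dose, ID3 from 30 nM on, while DUSP4 is nearly flat and SHISA3 and LPL are highest at 300 nM among the doses.

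The dose calls were also counted by the level at 4 h. Members at least 2 times their 0 h level at 4 h numbered 96, of which 78 fell with LDN, none rose, 6 were not called and 12 were not tested. The other 39 included 18 that fell, both that rose, 18 not called and 1 not tested. In the fit without a filter the median slope was −0.34 per step in the first set and −0.08 in the second, with −0.01 for all genes. BMP4 and IWP2 raised 70 of 82 compared genes of the first set at least 2-fold at 5 h and 6 of 38 of the second. The filter of that comparison can favor genes raised by the treatment. Without it, the median log2 difference from untreated cells was 1.58 in the first set and 0.53 in the second. The 4 h time point and the 5 h dose experiment come from separate libraries, prepared by ribosomal depletion and by polyA selection. Drawn at 1.5 times 0 h, the line left 19 late genes of which 5 fell, and at 3 times it left 72 of which 44 fell, so the number depends on where it is drawn.

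**Figure D4:**
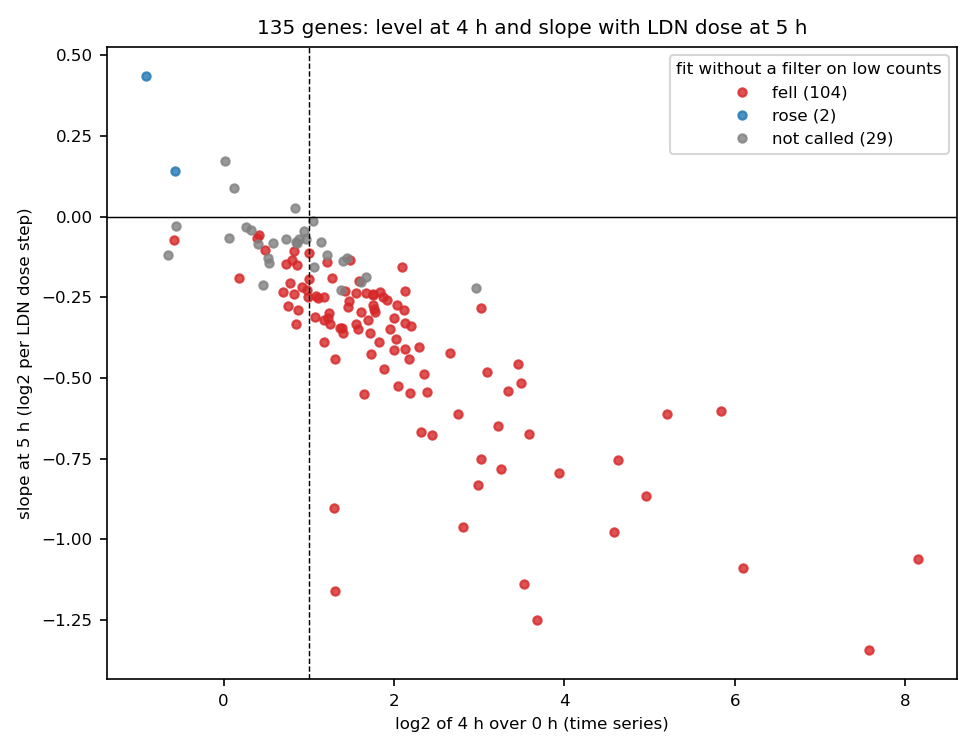
Each point is 1 of the 135 genes, with the log2 ratio of its 4 h to its 0 h level in the time series on the horizontal axis and its slope with LDN dose at 5 h (log2 per step, fit without a filter on low counts) on the vertical axis. The dashed line marks 2 times 0 h, to the right of which 96 genes all have slopes below 0, and colors give the 104 genes that fell, 2 that rose and 29 not called.

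Of the 5 feedback inhibitors of receptor signaling, grouped by hand, none had risen 2-fold at 4 h, and 2 fell with LDN, 1 rose and 2 were not called. DUSP4, a phosphatase that inactivates ERK, had 6.11 and 8.50 CPM at 0 h, 4.94, 15.5, 32.6, 14.4 and 4.43 CPM at the later times, so the rise came after an early level below both 0 h libraries. LDN left it at 11.4, 11.2, 11.3, 10.1 and 10.6 CPM, with 7.18 in untreated cells and a slope of −0.03 ± 0.0284 (SE, edgeR adjusted p = 0.465). SPRY2, a Sprouty inhibitor of receptor tyrosine kinase signaling, had 28.5 and 31.2 CPM at 0 h, 39.9, 62.0, 102, 68.9 and 33.3 CPM at the later times. Its slope of −0.06 ± 0.0198 passed narrowly (edgeR adjusted p = 0.0463). PHLDA1, a pleckstrin homology protein induced by growth factors and picked after its values were seen, had 81.0 and 78.7 CPM at 0 h and 53.5, 153, 361, 259 and 140.3 CPM at the later times. It fell slightly with LDN, from 65.2 to 52.9 CPM, while untreated cells had 63.3.

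DUSP4 and SPRY2 were the members on the list of FGF and ERK feedback genes. That list had 19 tested genes, 6 of which fell with LDN and 5 rose, and 9 were highest at 20 h. SPRY4, of the same family as SPRY2, went from 166 CPM to 399 at 20 h and then 224 at 42 h. It so missed both the 3-fold limit over 0 h and the 2-fold limit over 42 h. DUSP6, another ERK phosphatase, reached 68.9 CPM at 20 h but 121 at 42 h.

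SHISA3 and LPL were the only members that rose with LDN. SHISA3, which retains Wnt and FGF receptors in the endoplasmic reticulum, had 5.61 and 5.55 CPM at 0 h, 3.77, 8.42, 26.2, 10.9 and 0.719 CPM at the later times. It had the sharpest peak of the group, 2.41 times its second highest time. Over the doses it measured 6.33, 6.88, 7.59, 7.37 and 9.62 CPM, and 5.32 in untreated cells, so the untreated library was below all 5. The slope was 0.14 ± 0.0361 (SE, edgeR adjusted p = 0.0169), and the call was lost under DESeq2, without the 0 nM library and without the 300 nM library. LPL, the lipase that frees fatty acids from circulating triglycerides, had 4.14 and 3.84 CPM at 0 h, 2.12, 2.49, 18.0, 13.3 and 7.17 CPM at the later times. It was below both 0 h libraries until 12 h. At 5 h it went from 2.09 CPM at 0 nM to 3.32, 3.32, 4.60 and 7.66 at 300 nM, and 8.91 in untreated cells (slope 0.43 ± 0.0555 SE, edgeR adjusted p = 0.000126). The counting interval at 0 nM, 1.59 to 2.69 CPM, lay below that of untreated cells, 7.49 to 10.5 CPM. At 4 to 5 h LPL was low with BMP4 in both experiments.

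The same folds picked 61 genes with the peak at 4 h, 44 at 12 h and 49 at 28 h. Beside the 96 of 122 tested members that fell with LDN, 49 of 57 tested genes fell in the 4 h group, 39 of 42 in the 12 h group and 16 of 37 in the 28 h group, and none rose in these 3 groups. Median slopes without a filter were −0.33, −0.36 and −0.12 per step, and −0.27 for the 20 h group. These groups were not tested against each other. Among the members, EN1, LPL and MDGA1 did not have both 12 and 28 h above 0 and 42 h.

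By GENCODE 44 the group holds 118 protein-coding genes, 11 lncRNAs, 5 pseudogenes and 1 unclassified transcript, on 23 chromosomes, with 19 members on chromosome 1. For 11 members another member lies within 100 kb, among them APOBEC3D and APOBEC3F, near-identical cytidine deaminase genes whose reads may be shared. In all, 55 members share exon positions with another gene or are pseudogenes, including BAHCC1, NOTUM, FOXD1, BHLHE22, NKX1-2, POU3F3 and PHLDA1 among those described above, and their counts are uncertain where strand was not used. Of the other 80, 57 fell with LDN and 2 rose. The pluripotency markers, all 11 of which were tested, had 7 that rose with LDN and none that fell, and of 9 tested amnion markers 7 fell. Of all genes tested 10.9% fell and 10.4% rose. The other marker lists had only 1 to 5 tested genes each, with calls in both directions. Totals of the libraries were 37957385 to 71333471 counts in the time series and 28742690 to 33989998 at the doses, with 15600931 in the untreated library. The floor of 3 counts lay between 0.0421 and 0.192 CPM, and all intervals and floors cover counting error only. Mitochondrial counts were 7.60 and 4.29% at 0 h and 2.01 to 4.23% later. Scaling to library totals put the median gene 0.19 log2 units lower at 42 h than at 0 h, whereas TMM put it 0.04 higher, so the fall to 42 h is smaller by about that amount under TMM, where 111 members remained.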

How the data were processed

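The 13 RNA-seq libraries comprised 7 of a time series and 6 of a dose response. After trimming with Cutadapt, the authors aligned reads to GRCh38 (STAR 2.7.8a) and obtained gene-level estimates from RSEM 1.3.3. The deposited tables hold these expected counts, whole numbers that are not scaled for depth. The deposited FPKM of the time series, normalized by the authors for gene length and depth, served for an alternative and for naming genes. The annotation release and the use of strand in counting are not given in the sources used here.

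CPM were computed on library totals. The members and the gene lists were chosen with earlier results of these data known. Dose trends used the quasi-likelihood test of edgeR 4.0.16 (TMM factors, Benjamini-Hochberg adjustment, threshold 0.05) on the dose steps 0 to 4, for genes averaging 1 CPM or more. DESeq2 1.42.0 was an alternative. The p-values measure the scatter of single libraries. In a test on simulated data of this trend with 14907 genes, 98 of 100 genes with a slope of 0.4 and 88 of 100 with a slope of 0.2 were found. There were 25 false calls, a larger share of all calls than the threshold of 0.05. Far fewer genes changed in the simulation than were called in the data, so this share may not carry over. Software was matplotlib 3.10.9, scipy 1.17.1, pandas 2.3.3, numpy 2.4.6 under Python 3.11.15, and R 4.3.3.

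The genes named were the 12 members with the largest ratio of 20 h to the higher of 0 h and 42 h (0.5 CPM added), the 10 with the highest FPKM at 20 h, the 6 rising and the 6 falling most steeply with LDN, the 3 just inside and just outside each fold limit, and members on a gene list. Some genes that this rule names are not reported here. Others are said to be named for their role or position after their values were seen. Gene coordinates come from GENCODE 44 and promoters from RefSeq (GRCh38.p14).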

Additional observations from a re-analysis of the deposited data

How the results depend on the processing

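The number of members depends on the limits that define them. Without an expression minimum 1530 genes met the folds, and 326 did at 2 times 0 h and 1.5 times 42 h, and 64 at 4 and 3 times. Under the other scalings, expression minimums and a pseudocount it lay between 104 and 183, and leaving out 0 h replicate 1 or 2 gave 144 or 140. Members that fell with LDN numbered 41 with the dose in nM in place of steps and 57 without overlapping genes and pseudogenes, an alternative chosen after seeing the data. Leaving out 1 dose gave 78 to 95, and the other settings 78 to 104. The 2 genes that rose became 1 under DESeq2, with the dose in nM and with the untreated library added, and 1 to 3 when 1 dose was left out. With the 4 h split at 1.5 or 3 times 0 h, also chosen after seeing the data, 5 or 44 of the late members fell. Over the 65 genes tested and reported here and their alternatives, 759 of 823 slopes kept their direction and side of the threshold, 60 lost the call, 4 gained it and none of these changed sign. The causes were not tested. No paired analysis was possible because only 0 h had more than 1 library. Counts at the depth used here limit the lowest members: 13 were not tested.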

Other observations

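With the expression minimum lowered to a mean of 1 CPM, 48 more genes showed the same pulse. In the fit without a filter on low counts 18 of them fell with LDN, beside 5.26% of all genes in that fit, which took in genes with as little as 1 count. None rose, and 1 could not be fitted. The 48 include EOMES, a T-box factor of the primitive streak that went from 0.260 CPM at 0 h to 3.52 at 20 h. Also among them are FOXC1, a forkhead factor of mesoderm (0.149 to 2.24 CPM), and NANOS3, a germ cell factor (0.00701 to 4.11 CPM). So are IHH, a hedgehog ligand (0.133 to 2.62 CPM), and ATOH8, a bHLH factor known as a BMP target (0.510 to 3.25 CPM). Other primitive streak and mesoderm markers differed in direction between 0 and 20 h. TBXT went from 0.160 to 0.0330 CPM and MIXL1 from 1.11 to 0.759, while EVX1 went from 0.00701 to 1.40. Of the 9 primordial germ cell markers examined, NANOS3 among them, 3 averaged at least 2.5 CPM and none of these was highest at 20 h. In the dose test with its filter 4 of the 9 were tested, of which none fell and 1 rose. In the fit without a filter EOMES was not called, and FOXC1, NANOS3, IHH and ATOH8 fell. All the genes named here were picked for their roles after their values were seen. Their levels rest on few counts and single libraries.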
